A study of Mus musculus with 3 samples.

Results

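Cytosolic ribosomal protein genes were taken by symbol: protein-coding genes named Rpl or Rps followed by a digit, plus Rpsa, Rplp0, Rplp1 and Rplp2, with the Rps6k kinase genes left out. The rule took 92 of the 55450 genes that both deposited quantifications list, among 21938 protein-coding genes of the nuclear genome. They comprised 31 genes of the small subunit, 43 of the large subunit and 3 of the stalk, together 77 core subunits. The other members were 8 relatives with a suffix (such as Rpl22l1), 6 protein-coding genes with the -ps suffix that marks a retrocopy, and Rps19bp1, which encodes a binding partner of a small-subunit protein and not a subunit.

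The cells were bone-marrow-derived macrophages of mouse strain C57BL/6J, which are phagocytes grown out of marrow in culture. All 3 libraries formed 1 group: the cells had received lipid A, the part of bacterial lipopolysaccharide sensed by Tlr4, at 100 ng/ml for 12 hours, had been washed out for 12 hours, and had received it again at 100 ng/ml for 60 minutes. RNA of the cytosolic fraction was depleted of ribosomal RNA and 1 µg was sequenced as total RNA. The labels name each library a biological replicate of its own but give one donor entry for all, so every test measures the spread between these samples, and neither untreated nor once-treated cells were analysed here. The values are therefore levels, not responses to lipid A.

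Summed over genes, replicate 1 had 50801313 expected counts, replicate 2 had 53358833 and replicate 3 had 46540998. All 8 macrophage markers stood above 1 TPM (counts per base of effective transcript length, scaled to a fixed total), with Lyz2, which encodes lysozyme, highest at 3525 ± 672 TPM (SD, n = 3). None of the 3 T cell, 3 B cell, 3 erythroid or 3 stromal markers was called above 1 TPM. Of 3 neutrophil markers, 2 were above it, S100a9 highest at 4.66 ± 0.497 TPM, and Ly6g was listed at 0. The summed level of the stromal markers was 0.04, 4.64 and 2.13 TPM in replicates 1, 2 and 3. Replicate 3 stood apart in nuclear RNA: Malat1, a nuclear-retained transcript, was listed at 112, 90.6 and 452 TPM and the RNA of the 7SK particle, Rn7sk, at 27778, 26912 and 68232 TPM.

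A ribosome is built from ribosomal RNA and one copy of most ribosomal proteins, so their messenger RNAs are made in a coordinated way and are among the most abundant of a cell. The small subunit decodes the message, the large subunit joins the amino acids, and the stalk recruits translation factors. Most of these messages begin with a C and a run of pyrimidines, the TOP (terminal oligopyrimidine) element, through which the kinase complex mTORC1 controls their translation. In mammals nearly all of these genes have also left retrocopies, intronless copies of the messenger RNA elsewhere in the genome, most of them pseudogenes.

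All 77 core subunits were above 1 TPM, and 55 of them were above 100 TPM. Of the 90 members with a TPM above 0 in some library, 86 were above 1 TPM and 4 were below it, where 44.5% of all 20665 genes tested were above it (limma on log2(TPM + 1), Benjamini-Hochberg adjusted p under 0.05). At 100 TPM, 55 of the 90 were above the level, 17 were below and 18 could not be placed, and 1.74% of all genes tested were above it. The authors deposited a second quantification of each library, and with its TPM 10 of 89 members were above 100 TPM, beside 119 of all 28497 genes tested. Leaving out replicates 1, 2 and 3 in turn gave 50, 40 and 59 members above 100 TPM, beside 315, 264 and 354 of all genes. The median level was 192 TPM over the 31 small-subunit genes, 150 TPM over the 43 large-subunit genes and 205 TPM over the 3 stalk genes.

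The members together held 1.78%, 1.75% and 1.36% of TPM in replicates 1, 2 and 3, a mean of 1.63% ± 0.236 (SD, n = 3). Short non-coding RNAs held most of the TPM, and the signal recognition particle genes Rn7s1 and Rn7s2 alone were at 300114 ± 14959 and 302183 ± 15430 TPM. Of the TPM on nuclear coding genes, the members held 5.17%, 6.03% and 4.94%. Replicate 1 was the highest on the first scale and replicate 2 on the second, and replicate 3 was the lowest on both. Among the 100 highest nuclear coding genes, 11 were members.

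**Figure D1:**
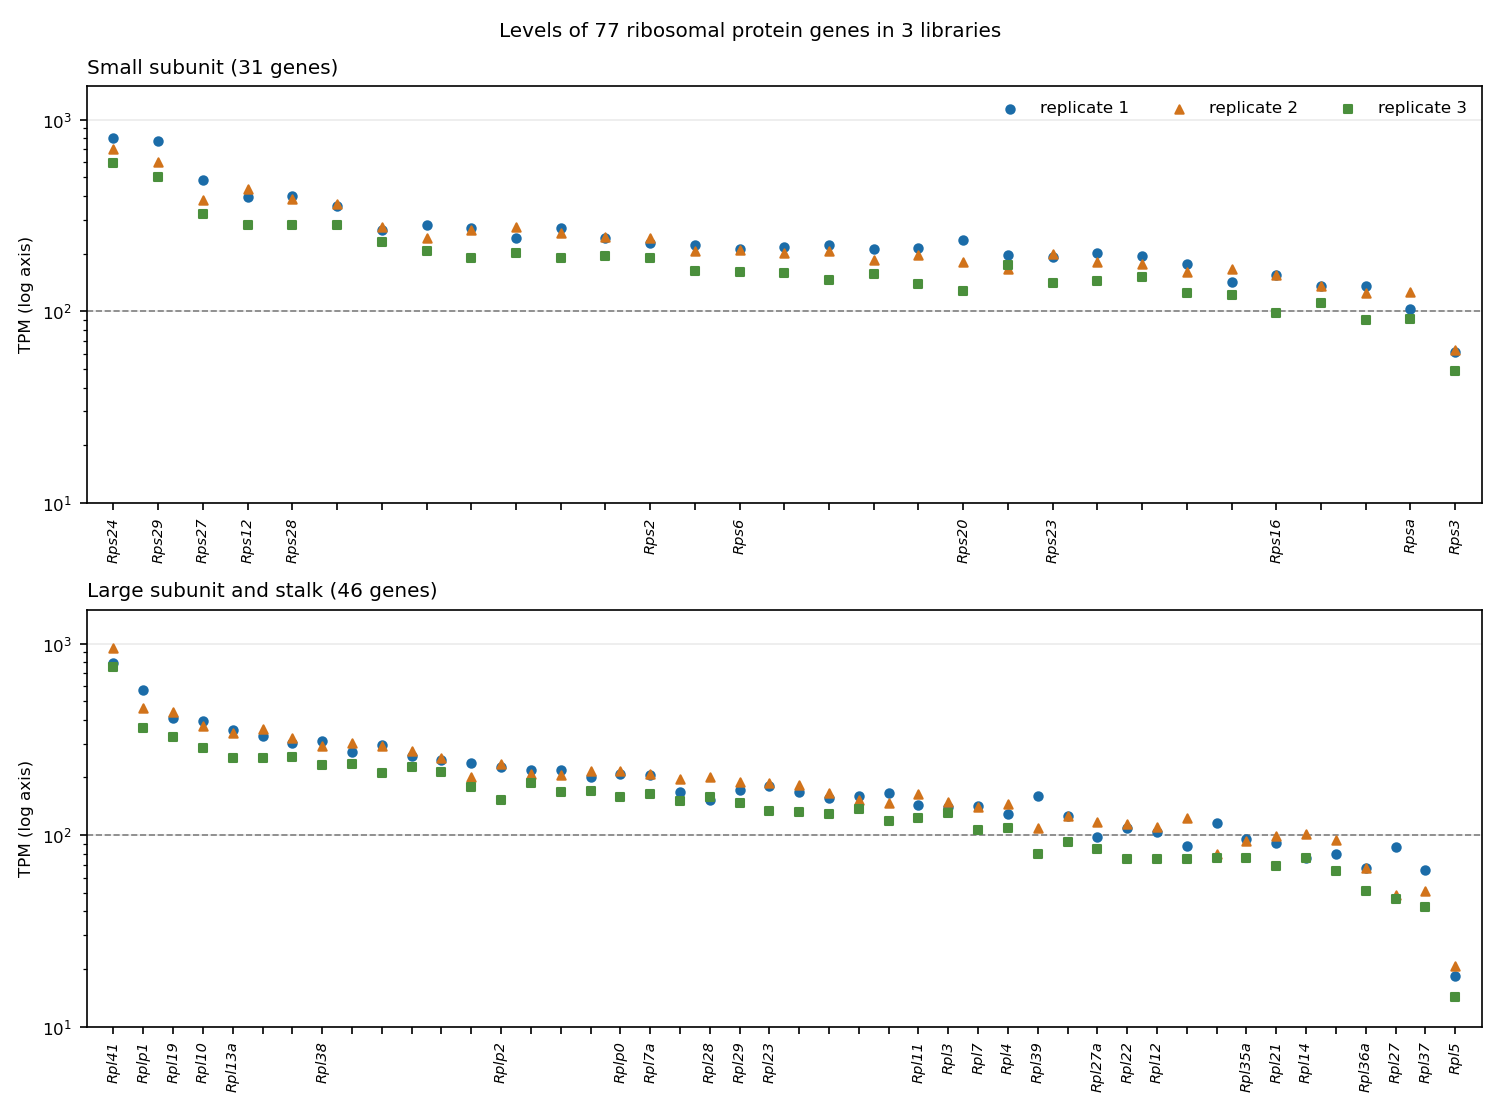
Level of each core ribosomal protein gene (TPM, log axis) in replicates 1 (circles), 2 (triangles) and 3 (squares), ordered by mean, with names for genes described in the text; the dashed line marks 100 TPM. Most genes lie between 50 and 400 TPM, Rpl41 is the highest at a mean of 835 TPM, and Rpl5 the lowest at 17.8 TPM. The squares of replicate 3 lie lowest for 75 of 77 genes. That count was not made over all coding genes, whose median by TPM was also lowest in replicate 3.

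Within the small subunit, Rps24 was the highest (chr14:24487125-24496959, build mm10). Its level was 805, 701 and 594 TPM in replicates 1, 2 and 3, a mean of 699.7 ± 106 TPM (SD, n = 3). Rps29, a small zinc-binding protein gene, followed at 776, 601 and 504 TPM, below Rps24 in each library. Its mean of 627 ± 138 TPM differed from that of Rps24 by less than either SD, which includes differences between libraries that both genes share. Replicate 1 was the highest and replicate 3 the lowest for both. Rps27, which encodes another zinc-binding subunit, was at 486, 383 and 322 TPM. Rps12 was at 394, 436 and 281 TPM, and Rps28 at 398, 385 and 283 TPM. These 3 genes overlapped in range, and their means of 397 ± 83.1, 370.3 ± 80.0 and 355 ± 63.0 TPM differed by less than the SD of Rps27.

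Rps6, the subunit phosphorylated by S6 kinases downstream of mTORC1, was at 211, 208 and 159 TPM, above the 100 TPM level by 0.93 on the log2(TPM + 1) scale (SE 0.18, limma adjusted p = 0.00134). Rpsa, which encodes a small-subunit protein also known as a laminin receptor, was at 103, 126 and 91.2 TPM and could not be placed against 100 TPM (limma adjusted p = 0.64). Rps3, a subunit at the entrance for messenger RNA, was the lowest of the small subunit at 61.4, 63.2 and 48.5 TPM and was below 100 TPM (log2 difference −0.79, SE 0.14, limma adjusted p = 0.00108). Rps19bp1, the member that is no subunit, was at 8.9, 9.44 and 9.25 TPM, the narrowest relative spread of the members named here.

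In the large subunit Rpl41, which encodes a very short protein, was the highest of all members (chr10:128548114-128549305). Its level was 794, 952 and 758 TPM, 3.04 above 100 TPM on the log2 scale (SE 0.21, limma adjusted p = 3.035e-06). Rpl19 followed at 408, 439 and 324 TPM. The lowest core subunit was Rpl5 at 18.4, 20.8 and 14.2 TPM, although it encodes one of the proteins that carry the smallest ribosomal RNA into the large subunit. Its partner in that particle, Rpl11, was at 143, 164 and 122 TPM. The levels of the pair did not overlap in any library, but most reads of the Rpl5 sequence were placed on an identical copy, as described below. The other large-subunit genes that the test placed below 100 TPM were Rpl37 at 53.03 ± 12.0, Rpl27 at 60.7 ± 22.8 and Rpl36a at 61.8 ± 9.15 TPM (SD, n = 3). In all, 72 of 77 core genes had means between 50 and 400 TPM, and the highest and lowest differed 46.9-fold.

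The stalk is formed by Rplp0, which anchors it, and by Rplp1 and Rplp2, acidic proteins that dimerise on it. Rplp1 was at 572, 459 and 362 TPM (mean 464 ± 105). Rplp0 was at 207, 217 and 158 TPM, and Rplp2 at 228, 234 and 153 TPM. The values of Rplp0 and Rplp2 overlapped, whereas those of Rplp1 were above both in every library.

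Length enters each of these levels, because TPM divides counts by the effective length that the authors deposited. Across the 77 core genes, effective length and mean TPM had a Spearman correlation of −0.48, and effective length and mean expected count one of 0.47. These are descriptions over genes that share the same 3 libraries. As length is the divisor of TPM, a negative sign of the first is partly built in. It cannot tell the measure apart from a higher abundance of short messages. Rps27 drew 4785, 4891 and 3333 expected counts on an effective length of 131 bases in replicate 1. Rps3 drew more counts, 7748, 9842 and 6812, on 1681 bases, and its TPM was lower in every library. Mean effective length was under 200 bases for 6 core genes.

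The libraries differed by more than counting noise for 85 of 87 members tested, where 67.0% of all 13065 genes tested did so (chi-square test on expected counts, Benjamini-Hochberg adjusted p under 0.05). The exceptions were Rpl39l and Rps27rt, both with few reads. The median biological coefficient of variation, the spread beyond counting noise, was 0.142 for core subunits, 0.142 for all genes tested and 0.118 for the 5833 genes with the highest counts (mean of at least 1000).

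By CPM scaled for library composition, most core subunits were highest in replicate 2 and lowest in replicate 3. With CPM scaled by TMM, a normalisation on the genes that change least, the median core gene stood at −0.001, 0.189 and −0.203 on the log2 scale from its own mean in replicates 1, 2 and 3. The median nuclear coding gene stood at 0.019, 0.003 and −0.024. Replicate 2 had the highest TMM-scaled CPM for 65 of 77 core genes and replicate 3 the lowest for 71. Such counts by library were not made over all coding genes, on this scale or by TPM. On the TPM scale the core medians were 0.125, 0.129 and −0.256, beside 0.115, −0.033 and −0.084 for coding genes, so the position of replicate 1 depended on the scale. By TPM, replicate 3 had the lowest median for coding genes as well as for core genes. For 16 other genes listed as having TOP messages the medians were −0.088, 0.191 and −0.135. Most of these 16 encode translation factors, and Tpt1, Npm1, Hnrnpa1 and Nap1l1 are also among them. For 76 mitochondrial ribosomal protein genes, which encode the separate ribosome of mitochondria, they were −0.05, 0.09 and −0.04. The 14 genes of mTORC1, its regulators and targets, with Myc and its partner Max, stood at −0.022, −0.016 and −0.013. Other groups had other orders: the medians of 21 ribosome biogenesis factors were −0.107, 0.07 and 0.023, lowest in replicate 1, and those of 8 macrophage markers were 0.124, −0.279 and −0.001, lowest in replicate 2, where the core genes were highest. Replicate 3, the lowest for core genes, was also the library with the most Malat1 and Rn7sk, and the part of nuclear RNA in the difference was not tested. Fewer cells of a type and less RNA per cell cannot be told apart in such samples.

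**Figure D2:**
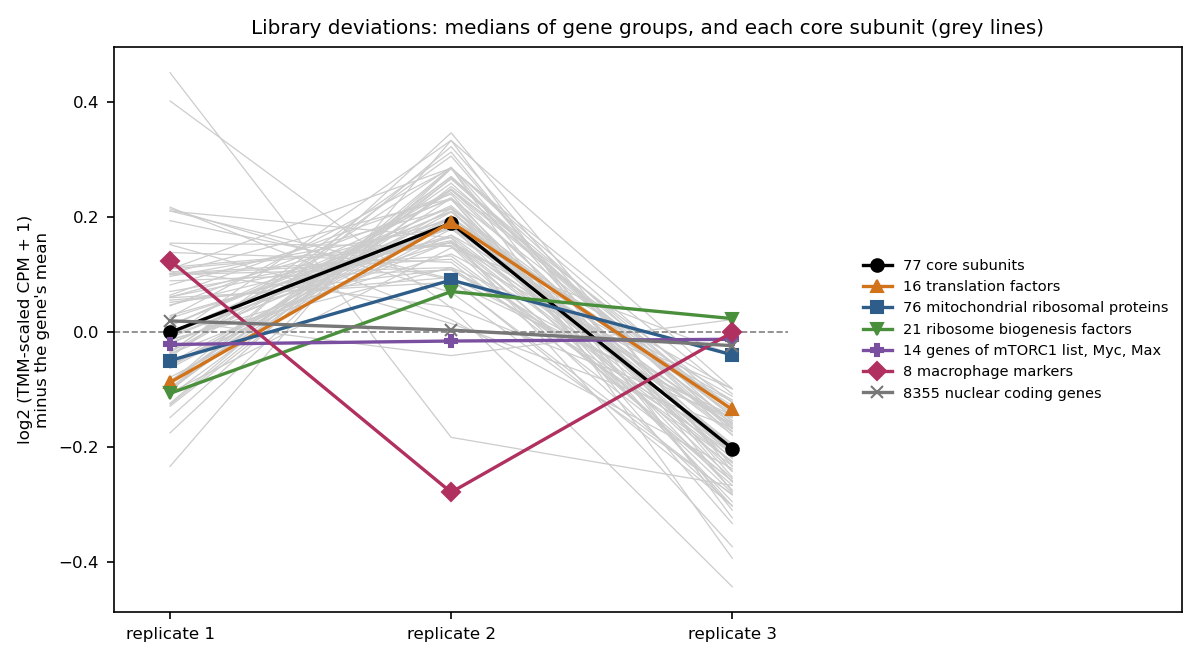
Deviation of each library from a gene's mean, in log2 (TMM-scaled CPM + 1), for each of 77 core subunits (grey lines, joining the values of 1 gene) and as medians of gene groups (coloured lines). Replicates have no order. The group marked as translation factors also holds Tpt1, Npm1, Hnrnpa1 and Nap1l1. The core median is at 0.189 in replicate 2 and −0.203 in replicate 3, while the medians of all coding genes and of the mTORC1 list (with Myc and Max) stay within 0.024 of 0, and that of macrophage markers is lowest in replicate 2 at −0.279.

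Of the core genes, 11 of 77 were highest in replicate 1 by TMM-scaled CPM. The 5 members at a mean of at least 10 TPM that varied most between libraries included 3 of these. Rpl22l1, a relative, varied the most, with an SD of 0.58 on the log2(TPM + 1) scale and 38.0, 23.7 and 16.5 TPM. Rpl39, which encodes a short protein lining the exit tunnel, was at 160, 109 and 79.2 TPM. Rpl27 was at 86.9, 48.6 and 46.5 TPM, Rps20 at 237, 179.9 and 127 TPM, and Rps16 at 154, 154 and 97.7 TPM. Replicate 3 was the lowest for each, as for 75 of 77 core genes by TPM, a count not made over all coding genes. Of TMM-scaled CPM, Rpl22l1 had 18.3, 13.1 and 9.16, Rpl39 96.3, 74.8 and 53.2, Rpl27 53.03, 33.8 and 31.9, and Rps20 208, 202 and 139. Replicate 1 was the highest for these 4 on that scale too, while Rps16, with 90.1, 101.9 and 63.3, had the order of most core genes.

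Near-identical copies were common. With a copy defined as another gene whose transcript matched a member's coding transcript at 95% identity or more over at least 200 bases, 640 genes outside the rule were copies of a member, and 626 of them were annotated as pseudogenes. The 92 members formed 87 families of this kind, 77 of which held such a copy. Rpl21 had 61 copies, Rpl29 had 48, Rpl7a 38 and Rps2 32. Of the 640, 313 had expected counts above 0. The copies outside the rule held 4.28% of all family counts in the gene tables and 5.77% in the second tables, so most reads were placed on the members.

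For a few genes the copy matches the whole coding sequence, and the sequences below show why they matter for the values: reads from them can belong to either gene. Each line is the first part of the coding sequence on the coding strand, 5′ to 3′, from the GENCODE transcripts, and it is the same in the copy named after it, base for base over the whole coding sequence (642 bases in Rpl10, 396 in Rps12, 495 in Rpl12, 891 in Rpl5).
Rpl10 and Rpl10-ps3: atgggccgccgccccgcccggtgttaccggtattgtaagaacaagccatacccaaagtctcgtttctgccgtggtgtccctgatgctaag
Rps12 and Rps12-ps3: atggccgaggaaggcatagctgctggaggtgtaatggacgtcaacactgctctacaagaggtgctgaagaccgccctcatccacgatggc
Rpl12 and Gm10275: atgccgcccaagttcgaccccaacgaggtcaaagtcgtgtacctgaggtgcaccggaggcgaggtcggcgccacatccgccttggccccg
Rpl5 and Gm15500: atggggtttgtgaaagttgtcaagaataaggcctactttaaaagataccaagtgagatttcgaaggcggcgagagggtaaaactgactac
Rpl10 lies at chrX:74270812-74273135 on the plus strand and its intronless copy Rpl10-ps3 at chr9:50344201-50344968 on the minus strand (mm10). Rps12 lies at chr10:23785183-23787275 (minus) and Rps12-ps3 at chr19:59322290-59322783 (plus). Rpl12 lies at chr2:32961559-32965345 (plus) and Gm10275, annotated as a transcribed processed pseudogene, at chr10:29698746-29699380 (minus). Rpl5 lies at chr5:107900502-107909005 (plus) and Gm15500, of the same class, at chr7:114705217-114706235 (minus).

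The 2 deposited quantifications divided the reads of these sequences in different ways. Counts were compared as CPM over nuclear coding genes (log2 of CPM + 1, second tables minus gene tables). Of 87 members tested, 4 were higher in the second tables, where 19.5% of nuclear coding genes were, and 53 were lower, where 12.9% were (limma, Benjamini-Hochberg adjusted p under 0.05). The median difference was −0.039 for core subunits and 0.006 for coding genes. With each core gene summed with its near-identical copies, the median was −0.043. The small shift of the median core gene thus remained when copies were included. Without replicate 2 the lower members numbered 19, beside 134 of 12145 coding genes, and with CPM over all genes 80, beside 9056 of 12159. The 4 higher members were Rps12-ps3, Rpl10-ps3, Rpl41 and Rpl23, the last by 0.03.

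Rpl12 had 134, 185 and 126 CPM in the gene tables and 2.53, 5.08 and 4.27 CPM in the second tables. The difference was −4.93 on the log2 scale (SE 0.17, limma adjusted p = 0.00622), lower in all 3 libraries. Its copy Gm10275 took 500.5 expected counts on average in the gene tables and 7483 estimated counts in the second. Summed over the family, the values were 153, 207 and 151 CPM against 154, 208 and 156.3 CPM. The family difference was 0.021 ± 0.023 (SD, n = 3), so the family totals nearly matched while the gene itself did not.

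Rps12 was lower in the same way, going from 215, 296 and 190 CPM to 6.97, 9.82 and 9.07 CPM (−4.60, SE 0.16, limma adjusted p = 0.00614). The gene held 97.5% of its family's counts in the gene tables and 3.75% in the second, and the family differed by −0.078 ± 0.008. Rps12-ps3, itself a member, was higher in the second tables by 5.43 (SE 0.19, limma adjusted p = 0.0039). Rpl10 went from 376, 437 and 340 CPM to 78.0, 89.4 and 74.2 CPM (−2.24, SE 0.021, limma adjusted p = 0.000176). Rpl10-ps3 was higher by 4.29 (SE 0.16, limma adjusted p = 0.00551), and their family differed by −0.051 ± 0.006.

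Rpl5 was divided in both quantifications. It held 30.03% of its family's counts in the gene tables and 5.86% in the second tables (difference −2.24, SE 0.19, limma adjusted p = 0.0187). Gm15500 was listed at 104, 95.8 and 74.1 TPM, above the 18.4, 20.8 and 14.2 TPM of Rpl5 in every library. The family summed to 123, 117 and 88.3 TPM, a mean of 109 ± 18.3 TPM, beside 143 ± 20.995 TPM for its partner Rpl11. The low level listed for Rpl5 is thus a level of reads placed on that gene, and which of the 2 loci was transcribed cannot be read from it.

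Smaller shifts followed the same form. Rpl28 was 0.53 lower in the second tables (SE 0.055), Rpl27a 0.51 lower (SE 0.027) and Rps23 0.48 lower (SE 0.054), and their families differed by 0.005, 0.038 and −0.061. Rpl41 went the other way and was 0.36 higher in all 3 libraries (SE 0.0041, limma adjusted p = 4.4e-05). Its 1 copy, Gm10076 (chr14:105681828-105682211), annotated as a lincRNA, was listed at 239, 362 and 307 TPM in the gene tables. In the second tables it took 19.3, 25.2 and 18.4 estimated counts, a different unit, so the size of the change cannot be read from these values. The coding sequence of Rpl41, 75 bases, is identical in that copy and is printed whole.
Rpl41 and Gm10076: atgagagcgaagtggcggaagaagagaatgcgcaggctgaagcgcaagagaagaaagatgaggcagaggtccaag
Rpl27 kept 51.0% and 54.8% of its family's counts in the 2 quantifications, next to the pseudogene Gm11518, which was listed at 58.0, 56.7 and 61.2 TPM. Its family summed to 203, 162 and 170 TPM, above Rpl27 alone in every library.

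Over all 77 core genes, 4 differed more than 1.5-fold between the quantifications (Rpl12, Rps12, Rpl10 and Rpl5), and none of the 77 families did. Family differences ran from −0.135 for Rpl7a to 0.336 for Rpl7. The largest of these differences did not lie between a gene and its copies. Rpl7 had 217, 259 and 204 CPM in the gene tables and 210, 356 and 311 CPM in the second, lower in replicate 1 and higher in the other libraries (limma adjusted p = 0.27), and its copies held under 1% of the counts in both. The uncertainty deposited with the gene tables, a posterior SD of the count, came to 2.01% of the count for Rpl5 and was no larger for any other core gene.

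**Figure D3:**
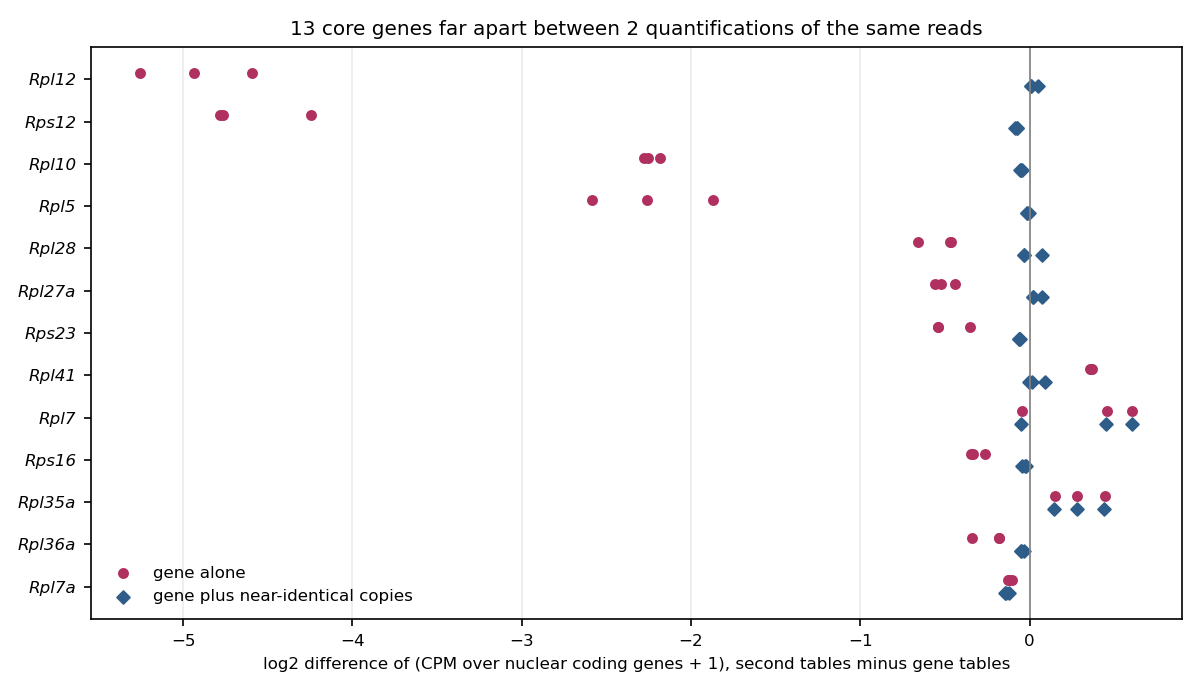
Difference between the 2 deposited quantifications for 13 of the 14 core genes with the largest mean difference, in log2 (CPM over nuclear coding genes + 1), for the gene alone (circles) and summed with its near-identical copies (diamonds), 1 point per library. Rpl12, Rps12, Rpl10 and Rpl5 lie at means of −4.93 to −2.24 alone and between −0.078 and 0.021 as families; Rpl7 and Rpl35a keep their differences.

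Relatives that encode a protein of their own differ from the parent in sequence. Rps27l encodes a close relative of Rps27, and Rps27rt is an intronless gene with the same coding sequence as Rps27. The first 90 coding bases show both cases, with capitals marking bases that differ from Rps27.
Rps27: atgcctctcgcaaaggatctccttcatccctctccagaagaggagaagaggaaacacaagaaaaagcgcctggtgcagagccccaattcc
Rps27l: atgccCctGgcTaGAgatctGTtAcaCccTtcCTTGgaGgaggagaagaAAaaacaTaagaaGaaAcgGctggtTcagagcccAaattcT
Rps27rt: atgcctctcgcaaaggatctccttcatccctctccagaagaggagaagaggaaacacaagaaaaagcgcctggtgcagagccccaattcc
Over the 252 coding bases of Rps27, Rps27l had 60 mismatches, 53 of them at the third base of a codon, and Rps27rt had none. Rps27l (chr9:66946086-66949516) was at 80.4, 70.7 and 55.7 TPM, 17.5% ± 0.98 of Rps27. Rps27rt (chr9:114982366-114982739) was at 2.5, 2.19 and 1.6 TPM, 0.53% ± 0.04 of Rps27, a division of reads that the sequence does not settle.

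Rpl36al and Rpl36a encode nearly the same protein from different genes, and by gene alone the relative was the higher of the pair.
Rpl36a: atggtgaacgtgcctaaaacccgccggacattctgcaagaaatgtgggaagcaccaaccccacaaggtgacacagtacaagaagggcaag
Rpl36al: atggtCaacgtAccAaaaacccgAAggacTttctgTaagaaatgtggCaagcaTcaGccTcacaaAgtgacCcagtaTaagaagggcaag
Capitals mark bases that differ from Rpl36a, 14 of the first 90 and 39 of all 318 coding bases, 35 of them at the third base of a codon. Rpl36al (chr12:69182731-69184083) was at 89.5, 90.6 and 76.6 TPM, and Rpl36a (chrX:134585654-134588062) at 67.0, 67.2 and 51.3 TPM. The relative was higher in 3 of 3 libraries, and parent minus relative was −0.47 ± 0.088 on the log2(TPM + 1) scale (SD, n = 3). Summed with their near-identical copies, the Rpl36a family was at 91.5, 103 and 78.3 TPM and the Rpl36al family at 90.4, 91.3 and 77.3 TPM. By these sums the parent's family was the higher in each library, so the order of the pair depended on the copies. A paired exact permutation test over 3 libraries cannot go below p = 0.25, and no model was fitted for such pairs.

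In the other pairs the parent was the higher in 3 of 3 libraries. Rpl22l1, the paralog of the RNA-binding Rpl22, was at 26.0% ± 7.89 of its parent, which had 108, 115 and 74.6 TPM. Rpl7l1, which acts in ribosome assembly, was at 19.8, 22.5 and 18.7 TPM, 15.9% ± 1.75 of Rpl7. Rpl39l, known from male germ cells, was at 0.5, 0.31 and 0.25 TPM, below 1 TPM by 0.57 on the log2(TPM + 1) scale (SE 0.071, limma adjusted p = 0.000128). The whole coding sequence of 153 bases is shown beside that of Rpl39, with the 23 differing bases in capitals.
Rpl39: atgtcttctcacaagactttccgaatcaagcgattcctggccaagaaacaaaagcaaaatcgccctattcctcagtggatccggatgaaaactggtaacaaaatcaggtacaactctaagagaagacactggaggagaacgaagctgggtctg
Rpl39l: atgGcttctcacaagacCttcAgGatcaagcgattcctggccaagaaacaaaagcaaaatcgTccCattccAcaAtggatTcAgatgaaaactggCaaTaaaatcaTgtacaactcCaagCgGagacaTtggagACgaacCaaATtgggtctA
Rpl3l, a paralog of striated muscle, was at 0.02, 0 and 0.04 TPM beside 140, 149 and 130 TPM for Rpl3. Rpl10l, another paralog of male germ cells, was listed at 0 in all 3 libraries, and 98 of the 642 coding bases of Rpl10 are different in it. Of the -ps genes, Rpl36-ps4 was also listed at 0, Rpl9-ps1 was at 0.04, 0.03 and 0.03 TPM and Rpl36a-ps1 at 0.53, 0.21 and 0.17 TPM.

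**Figure D4:**
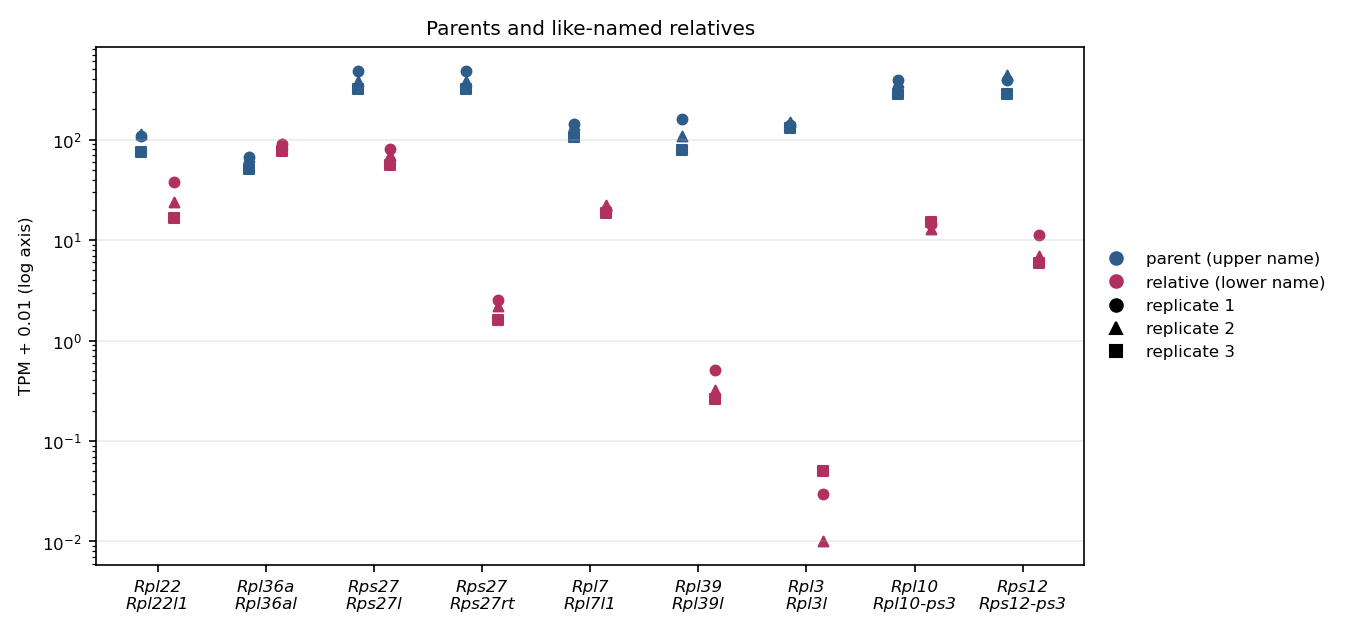
Levels of parents (blue, upper name) and like-named members (red, lower name) in replicates 1 (circles), 2 (triangles) and 3 (squares), as TPM + 0.01 on a log axis. Without near-identical copies summed, Rpl36al lies above Rpl36a, at 76.6 to 90.6 against 51.3 to 67.2 TPM. Rpl22l1, Rps27l and Rpl7l1 lie below their parents but above 10 TPM, and Rpl39l and Rpl3l below 1 TPM.

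Most core genes put nearly all of their TPM on coding transcripts. The median share was 99.67%, and the highest transcript was annotated as protein-coding in 70 of 77 genes. In 14 core genes, transcripts annotated as retained intron or nonsense-mediated decay (a message with a stop codon placed so that it may be degraded) held over 5% of TPM, and 16 did so by the second quantification. In Rps20 they held 93.2%, 90.8% and 91.4%, nearly all on Rps20-201, a transcript of 582 bases, while the protein-coding Rps20-203 is annotated with 3706 bases. In Rps16 the share was 88.5%, 89.0% and 88.4%, mostly on Rps16-203 of 518 bases beside the coding Rps16-201 of 1109 bases. For both genes the libraries differed by a few points at most. Whether the annotated class describes these molecules was not tested.

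In Rpsa, the decay transcript Rpsa-206 of 1101 bases held 57.9%, 59.7% and 56.6% and the coding Rpsa-201 of 1938 bases 41.8%, 40.1% and 42.6%. Rpl13a, the subunit released from ribosomes in interferon-treated monocytes to silence inflammatory messages, had 35.0%, 44.5% and 28.9% on retained-intron transcripts and 23.6%, 13.0% and 21.8% on decay transcripts. Its total level was 353, 340 and 254 TPM. Rpl14 differed most between libraries, with 3.02%, 25.1% and 25.04% on decay transcripts, and replicate 1 stood apart. In the second tables the shares of both classes together were 92.6% for Rps20, 93.3% for Rps16, 74.4% for Rpsa and 59.2% for Rpl13a.

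**Figure D5:**
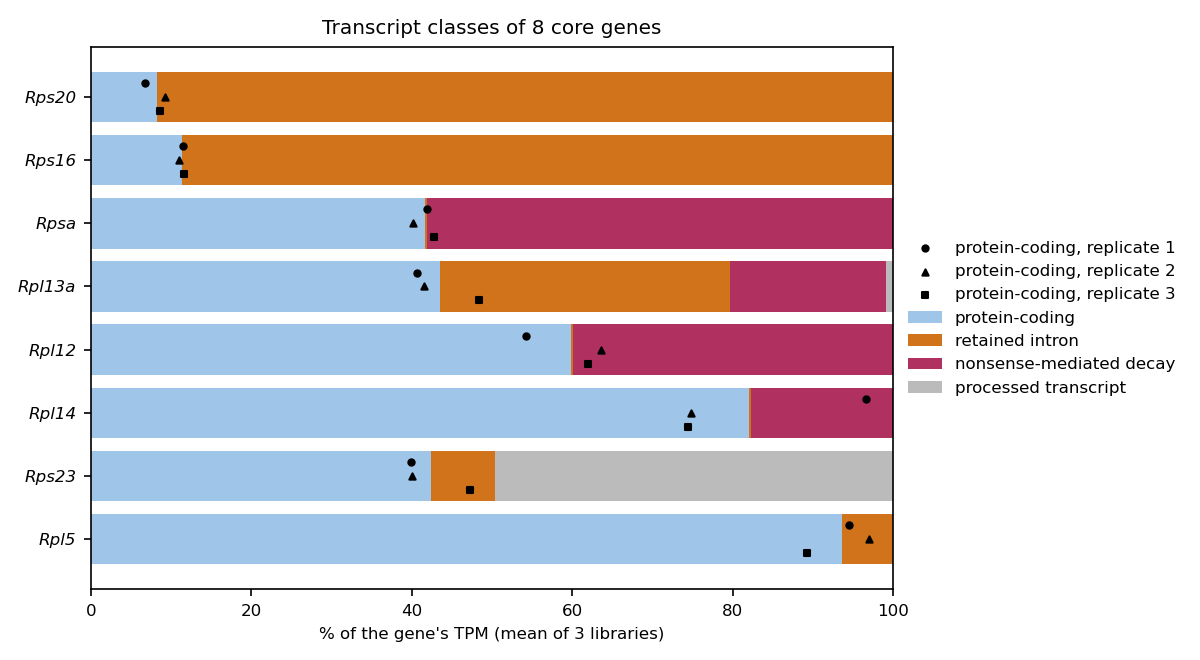
Share of a gene's TPM by annotated transcript class for 8 of the core genes with over 5% on retained-intron or decay transcripts; bars are means of 3 libraries and black points the protein-coding share in each library. Protein-coding transcripts hold 8.21% of Rps20 and 11.3% of Rps16, and the points of Rpl14 are the most spread.

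The TOP element was looked for at annotated starts. RefSeq promoter windows (GRCm38.p6, 250 bases before and 50 from the start) matched 66 of 92 members, 57 of them core genes with 67 windows. A C at the first base followed by at least 4 more pyrimidines was present in 13 of the 67 core windows, 19.4%, in 0 of 75 windows of mitochondrial ribosomal protein genes and in 2.51% of all 32851 windows, on the sense strand only. With the run allowed to begin up to 5 bases to either side, the shares were 43.3%, 22.7% and 18.3%. The motif CTTCCGG, on either strand and anywhere in the 300 bases, was in 37.3%, 34.7% and 8.86%, and TATAAA, on either strand, in 8.96%, 6.67% and 13.6%. A match is a description of these letters in these windows, and annotated starts may lie some bases from the real ones. Windows of 100 bases before and 30 from the start are printed for 4 genes that carry the run, which is in capitals: a stalk gene, the S6 kinase target, and 2 abundant subunits.
Rps27 (chr3:90213619-90213748, minus): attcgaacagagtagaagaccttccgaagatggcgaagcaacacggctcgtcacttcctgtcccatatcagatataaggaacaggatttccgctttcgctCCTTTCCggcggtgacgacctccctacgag
Rpl38 (chr11:114668480-114668609, plus): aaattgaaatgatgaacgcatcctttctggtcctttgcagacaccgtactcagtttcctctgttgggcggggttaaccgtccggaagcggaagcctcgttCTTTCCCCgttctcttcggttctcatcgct
Rps6 (chr4:86857338-86857467, minus): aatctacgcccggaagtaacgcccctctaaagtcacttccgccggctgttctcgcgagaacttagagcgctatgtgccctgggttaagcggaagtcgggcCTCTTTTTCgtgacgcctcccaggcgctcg
Rplp2 (chr7:141447551-141447680, plus): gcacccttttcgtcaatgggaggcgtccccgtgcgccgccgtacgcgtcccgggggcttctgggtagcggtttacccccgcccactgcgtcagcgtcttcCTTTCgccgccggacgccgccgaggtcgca
Rps27 and Rpl38 were at 397 ± 83.1 and 278 ± 41.9 TPM, and Rps6 and Rplp2 at 193 ± 28.9 and 205 ± 44.8 TPM. All 4 were lowest in replicate 3, as were 75 of 77 core genes and the median of all coding genes by TPM. Core genes with and without the run were not compared, so a link between the run and the order of libraries was not tested.

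Genes that work with the ribosomal proteins were mostly lower. Fau, which encodes a small-subunit protein fused to a ubiquitin-like domain, was at 420, 497 and 361 TPM, and Rack1, a scaffold on the small subunit, was at 99.4, 90.3 and 69.4 TPM. All 78 mitochondrial ribosomal protein genes were above 1 TPM and none was above 100 TPM, with a median of 11.0 TPM, from Mrps27 at 3.05 ± 0.28 to Mrps21 at 77.3 ± 8.03 TPM. All 16 of the other genes with TOP messages, mostly translation factors, were above 1 TPM and 4 above 100 TPM, Tpt1 among the 4. They ran from Eif3f at 25.9 ± 5.32 to the elongation factor Eef1a1 at 1014 ± 188 TPM. The 23 ribosome biogenesis factors were all above 1 TPM and none above 100, from Dkc1, a pseudouridine synthase, at 1.37 ± 0.151 to nucleolin (Ncl) at 39.8 ± 2.67 TPM. Of 12 genes of RNA polymerase I, which makes the ribosomal RNA, 10 were above 1 TPM and 2 could not be placed, from Taf1a at 0.983 ± 0.087 to Polr1d at 27.4 ± 2.48 TPM. The 11 chaperones of ribosomal proteins ran from Grwd1 at 1.41 ± 0.053 to Naca at 116 ± 23.1 TPM, and the 14 genes of mTORC1, its regulators and targets, with Myc and Max, from Mlst8 at 2.33 ± 0.191 to Max at 52.9 ± 12.6 TPM, all above 1 TPM. The 8 ribosome quality control genes that were found ran from Pelo at 2.54 ± 0.159 to Edf1 at 81.9 ± 8.93 TPM. Of 5 genes that link free ribosomal proteins to growth arrest, 4 were above 1 TPM, with the cell cycle inhibitor Cdkn1a highest at 208 ± 65.2 TPM and Cdkn2a lowest at 0.04 ± 0.036 TPM.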

How the data were processed

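Total RNA of the cytosolic fraction was sequenced in 3 libraries of 1 group. Expected counts and TPM per gene and transcript were deposited on build mm10 with GENCODE M21, per the labels and the file headers, together with a posterior SD of each count, effective lengths and transcript shares. A second set of transcript tables with estimated counts and TPM was deposited, per the file headers, and was summed to genes here. The aligner, tools, versions and strandedness are each not given in the sources used here. A gene on the other strand overlapped 25 members, and reads in the shared stretches therefore cannot be told apart by strand.

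Genes in both sets of tables were used (55450). Entries that are not genes held 0.39%, 0.103% and 0.089% of counts in replicates 1, 2 and 3. In the same order, 3 counts amount to 0.0591, 0.0562 and 0.0645 CPM, which covers counting error only. limma 3.58.1 (trend, robust) tested log2(TPM + 1) against 1 and 100 TPM and the difference between quantifications (CPM over nuclear coding genes, mean count of at least 10). Expected counts were rounded to whole numbers for the chi-square noise test (2 degrees of freedom, at least 30 counts) and for TMM and dispersion in edgeR 4.0.16. Copies were found with blastn 2.17.0. All p-values were adjusted over all genes tested. The scripts were tested on simulated data.

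Genes were named by a rule: the 8 highest and 6 lowest members, the 5 most variable, the 5 furthest apart between quantifications in each direction, relatives with parents, the stalk, Rpl5, Rpl11, Rps6, Rpsa, Rps19bp1, the 5 with most retained-intron or decay transcripts, and the extremes of each other list. Genes named beyond it (Rps3, Rpl37, Rpl28, Rpl27a, Rps23, Rpl14, Rpl38, the genes with most copies and the like) and the family sums were chosen after the values were seen. Some genes that the rule picks are not reported here. Members and lists were chosen with earlier results of these data known.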

Additional observations from a re-analysis of the deposited data

How the results depend on the processing

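The counts of members above 1 TPM and of members varying beyond counting noise stayed within 1.5 times under each alternative run (a pseudocount of 0.1, count minimums, the second tables, coding-gene TPM, total counts, DESeq2 1.42.0 size factors, leaving out each replicate), at 83 to 86 and 71 to 85. The 83 members above 1 TPM in the second tables stood beside 7771 of all 28497 genes tested. The 71 members varying without replicate 3 stood beside 6372 of 12423. Members above 100 TPM were 10 in the second tables and 40 to 59 without a replicate. With TPM over nuclear coding genes they were 78, but genes of all kinds rose too, from 360 to 1359 of 20665. The second tables spread their TPM differently: members held 0.7245% of it, but 5.15% of its coding part, against 1.63% and 5.38% in the gene tables; the share of expected counts was 1.25%, and the TPM share was 1.55% to 1.77% without a replicate. Members lower in the second tables were 80 with CPM over all genes, where 9056 of 12159 coding genes were lower, and 19 to 54 without a replicate. Replicates 1, 2 and 3 were the highest for 45, 43 and 2 members by TPM, for 16, 70 and 4 by TMM-scaled CPM, for 14, 72 and 4 by TPM over coding genes, and for 11, 75 and 3 by TPM of the second tables. No such counts were made over all coding genes, whose median by TPM was highest in replicate 1 and lowest in replicate 3. Parent minus relative reversed in the second tables for Rpl10 and Rpl10-ps3 (4.53 to −2.04) and for Rps12 and Rps12-ps3 (5.38 to −4.71), pairs whose coding sequences are identical. The other 12 pairs kept their direction there. Rpl36a and Rpl36al changed order in the gene tables when each was summed with its near-identical copies. The 4 core genes more than 1.5-fold apart between quantifications became 0 when copies were summed, an alternative chosen after seeing the data. No paired analysis was possible between groups because there is only 1 group; the 2 quantifications, and parents and relatives, were compared within each library. The pseudocount compresses differences among low members, and short effective lengths limit the precision of TPM.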

Other observations

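Ribosomal protein genes host small nucleolar RNAs, guides for ribosomal RNA modification that are cut out of introns. An annotated snoRNA gene overlapped 30 of 92 members, 59 snoRNA genes in all, with 5 in Rpl4 and 4 in Rpl13a (Snord32a, Snord33, Snord34 and Snord35a). Reads of a snoRNA and of its host intron cannot be told apart by position in these tables. A protein-coding gene overlapped 21 members, among them Rpl12 (with Lrsam1), Rpl5 (with Fam69a) and Rpl36al (with Gm49383, identical to it over 336 bases). The members lay on every autosome and on the X chromosome, with 14 on chromosome 7, 9 on chromosome 17 and 9 on chromosome 9.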
